A study of Saccharomyces cerevisiae with 9 samples.

Results

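The comparison described here sets yeast exposed to 300 mg/L bisphenol A (BPA), the monomer of polycarbonate plastic, against yeast given only the ethanol in which BPA was dissolved. Its members were taken by the sample titles: 3 arrays of cultures at 300 mg/L BPA and 3 arrays of control cultures, 6 of the 9 arrays in the series. The other 3 arrays, at 50 mg/L BPA, entered the fit only to estimate each gene's spread. Saccharomyces cerevisiae was grown with shaking in YPD, a rich glucose broth, and BPA or the same volume of ethanol was added in mid-exponential growth for 180 min. Every culture of the comparison therefore carried ethanol. No strain, mating type or growth rate is stated in the labels. Replicates are labelled biological, but whether they came from separate starter cultures is not said, so the p-values measure the spread between these samples.

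Budding yeast meets a toxic organic compound in part with membrane pumps, whose genes are driven by zinc-cluster transcription factors such as Pdr1, Pdr3 and Yrr1. In glucose broth it ferments, keeps its store of glycogen low and holds genes of respiration, meiosis and spore formation down. Mating-type genes are set by the cell type: a haploid alpha cell makes alpha-factor and keeps the a-specific genes off.

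Levels are log2 values as deposited, 1 probe set per gene for 5449 genes, and a difference of 1 is a 2-fold change. A gene was called where limma's adjusted p was under 0.05 after Benjamini-Hochberg adjustment across the 5449 genes, and errors of differences are standard errors of that fit. At 300 mg/L between 5415 and 5418 genes per array lay above background, the 95th percentile of the array's probe sets taken as fission yeast, against 5365 to 5374 in controls. Across genes, pairs of arrays correlated at 0.994 to 0.997 at 300 mg/L, at 0.995 to 0.998 among controls and at 0.954 to 0.970 between the groups. The median SD of a gene over 3 arrays was 0.08 at 300 mg/L and 0.07 in controls. The first principal component of the 6 arrays carried 87.8% of the variance and separated the groups. Transcripts probed at several points had a median 3′ over 5′ difference of 0.95, 1.01 and 0.88 on the 300 mg/L arrays, against 0.84, 0.86 and 0.88 in controls. Single transcripts differed: TDH1 had 0.81, 0.96 and 0.62 at 300 mg/L, against 0.24, 0.32 and 0.11 in controls. SPT15 had 1.14, 1.25 and 1.11 at 300 mg/L, against 1.34, 1.15 and 1.31 in controls. The part of these 3′ over 5′ differences in the results was not tested.

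Of the 5449 genes, 2872 were called, which is 52.7%. At 300 mg/L 1500 genes rose, 27.5% of those tested, and 1372 fell, 25.2%. The groups did not overlap for 35.2% of genes on the higher side and 32.6% on the lower side, called or not, so a lack of overlap in 1 gene was common. Most changes were small: 67.5% of the called genes changed by less than 1.5-fold. Changes of at least 2-fold were lopsided, with 229 genes higher, 4.2% of those tested, and 65 lower, 1.19%. Of these 2-fold changes 77.9% were rises, and 66.2% under quantile normalization of the gene values. At 4-fold or more, 59 genes rose and only GPH1, the glycogen phosphorylase, fell. The central 95% of all genes lay between -0.82 and 1.35, and the median change was 0.01. In bulk cultures, fewer cells of a kind and less RNA per cell cannot be told apart.

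**Figure D1:**
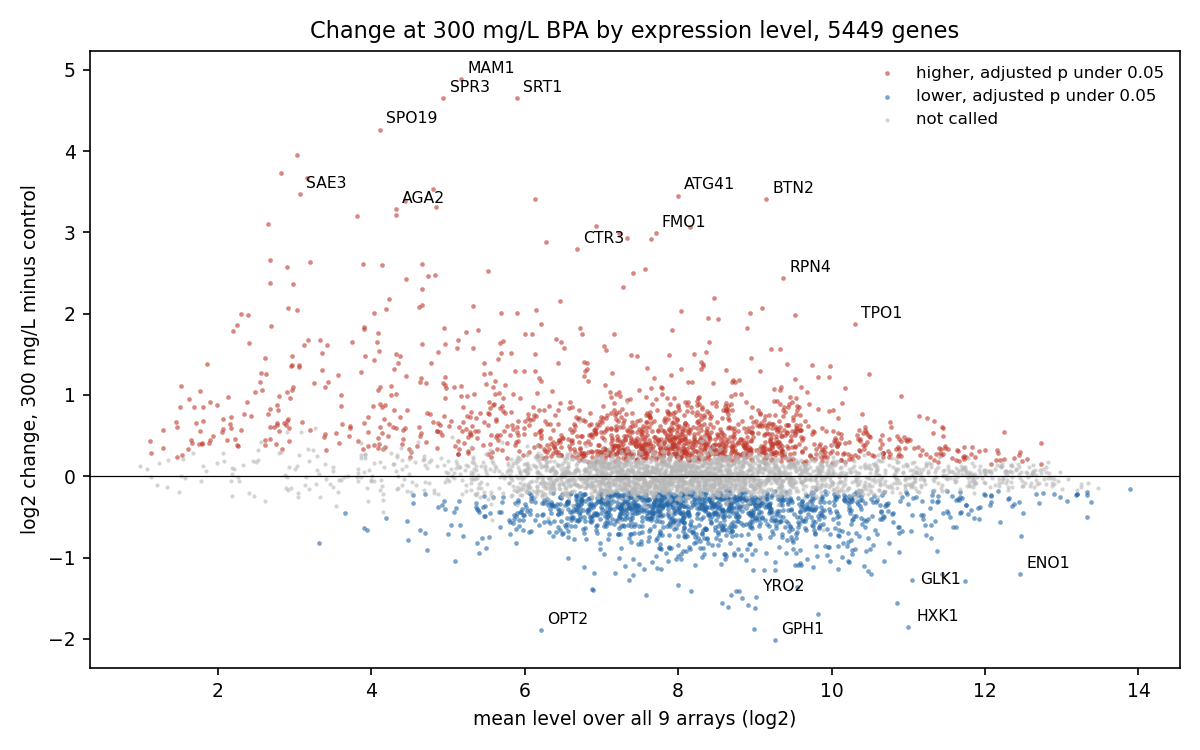
Log2 change at 300 mg/L over control for each gene (vertical axis) against its mean log2 level over the 9 arrays (horizontal axis), with called genes coloured and a line at 0. Rises reach 4.89 for MAM1 and are more frequent among genes of low mean level, and GPH1, at -2.01, is the lowest point.

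The share of rises depended on the level of the gene. Among 228 genes with a mean level under 4 over the 9 arrays, 134 rose and 4 fell, with a median change of 0.44. From 4 to 6, 197 of 442 rose and 65 fell, with a median of 0.20. From 12 up, 14 of 136 rose and 28 fell. Quantile normalization turned this: 47 rose and 80 fell under a level of 4, with a median of -0.11, and 125 rose and 170 fell from 4 to 6. Counts over lists of low-level genes, such as those of meiosis, therefore depend on the scaling. Every list count below stands against 27.5% higher and 25.2% lower over all genes. Of 54 gene lists, 12 had a count of rises or falls that moved by more than 1.5 times and by at least 2 genes under quantile normalization, 41 with arrays centred on the hybridization spike-ins and 25 when some single array was left out. Of the 294 changes of at least 2-fold, 286 were still called in the same direction under quantile normalization. Some 14 of the 2-fold rises had all 3 control arrays at background, and for these the fold is given as a lower bound.

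The pumps and pathways of drug resistance were examined by role, from the transcription factors to their targets. Of 12 regulators 5 rose and 1 fell, all by less than 2-fold. YAP1, the basic leucine zipper factor of oxidative and drug stress, had levels of 8.51, 8.47 and 8.54 at 300 mg/L, against 7.83, 7.82 and 7.99 in controls. Every array at 300 mg/L was above every control array for YAP1, a difference of 0.63 ± 0.08 (adjusted p = 0.000125). PDR3, which activates pump genes and its own gene, had 7.51, 7.52 and 7.96 at 300 mg/L, against 7.20, 7.20 and 7.28 in controls. The groups did not overlap for PDR3, though replicate 3 at 300 mg/L stood above the others (0.44 ± 0.12, adjusted p = 0.0111). TDA9 (0.31 ± 0.10), the zinc-cluster factor STB5 (0.30 ± 0.06) and YRR1 (0.21 ± 0.08) rose less. RDR1, which represses pump genes, fell by 0.23 ± 0.08. PDR1 itself differed by 0.17 ± 0.09 (adjusted p = 0.117), and PDR8 by 0.14 ± 0.13, YRM1 by 0.02 ± 0.09, WAR1 by -0.01 ± 0.08, CAD1 by -0.06 ± 0.09 and HAA1 by -0.21 ± 0.10, none of them past the test. With arrays centred on hybridization spike-ins, 1 regulator rose and 0 fell. Without control replicate 1 or without 300 mg/L replicate 2, 3 regulators rose.

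Among 20 ATP-binding cassette transporters, which pump compounds at the expense of ATP, 8 rose and 0 fell. PDR10, a close relative of the main drug pump, had levels of 9.10, 8.63 and 9.06 at 300 mg/L, against 7.63, 7.55 and 7.64 in controls (1.32 ± 0.11, adjusted p = 1.45e-05). PDR12, the exporter of weak organic acids, had 10.67, 9.70 and 10.54 at 300 mg/L, against 8.97, 9.13 and 9.22 in controls (1.2 ± 0.22, adjusted p = 0.00112). Neither gene overlapped between groups, and replicate 2 was the lowest of the treated arrays for both. The pump gene SNQ2 rose by 0.90 ± 0.12 and VMR1, a transporter of the vacuole membrane, by 0.82 ± 0.09. PDR5 and YOR1, the best studied pumps of this family and named here after their values were seen, rose by 0.71 ± 0.11 and 0.49 ± 0.10. The median change over the 20 transporters was 0.12, against 0.01 over all genes. Quantile normalization gave 8 higher and 3 lower.

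Among 24 measured antiporters of the major facilitator superfamily, which drive export with protons, 10 rose and 4 fell. TPO1, an exporter of polyamines and drugs, had levels of 11.67, 11.28 and 11.56 at 300 mg/L, against 9.59, 9.69 and 9.60 in controls. That is a difference of 1.87 ± 0.09 with no overlap between groups (adjusted p = 6.47e-07). SIT1 and ENB1 belong to this family but import iron-siderophore complexes, and they rose by 1.95 ± 0.15 and 1.35 ± 0.07. ATR1, named for resistance to aminotriazole, had 8.36, 8.08 and 8.25 at 300 mg/L, against 7.08, 7.18 and 7.25 in controls (1.06 ± 0.09, adjusted p = 9.24e-06). TPO2, whose probe set can match related sequences, fell by 0.39 ± 0.10. TPO4 fell by 0.38 ± 0.14 with overlapping groups, and SGE1 and QDR2 fell by 0.29 ± 0.07 and 0.29 ± 0.10. Quantile normalization gave 8 higher and 7 lower in this family, and spike-in centring 6 and 2. The falls numbered 2 without control replicate 1 or 2 or without 300 mg/L replicate 1 or 2.

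Another class of membrane proteins acts on lipids. Of 13 such genes 5 rose and 4 fell, and the rises were led by relatives of RTA1. RTA1, named for resistance to 7-aminocholesterol, had levels of 7.23, 6.70 and 7.48 at 300 mg/L, against 4.56, 4.74 and 4.56 in controls (2.52 ± 0.17, adjusted p = 3.12e-06). PUG1, linked to porphyrin transport, rose by 1.23 ± 0.16. RSB1, which gives resistance to sphingoid bases, had 8.71, 7.80 and 8.71 at 300 mg/L, against 7.78, 7.26 and 7.27 in controls. Replicate 2 of RSB1 at 300 mg/L lay only just above control replicate 1, and the difference was 0.97 ± 0.24 (adjusted p = 0.00613). The flippase kinase gene FPK1 rose by 0.35 ± 0.10. The aminophospholipid flippase genes NEO1 (-0.32 ± 0.07), DRS2 (-0.28 ± 0.08) and DNF1 (-0.27 ± 0.09) fell, as did the kinase gene YPK1 (-0.27 ± 0.07). Centred on spike-ins, 3 of the 13 rose and 0 fell.

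Of 18 measured further targets of Pdr1 or Yrr1, 13 rose and 4 fell, with a median change of 0.56. YGR035C, a small protein of unknown role, had levels of 9.58, 9.27 and 9.5 at 300 mg/L, against 6.42, 6.41 and 6.77 in controls (2.92 ± 0.12, adjusted p = 1.31e-07). HXT11, a hexose transporter under Pdr1 control, had 6.21, 4.78 and 5.91 at 300 mg/L, against 3.22, 2.92 and 2.92 in controls. The spread within the treated group was wide for HXT11, but its lowest value still lay above the highest control (2.61 ± 0.30, adjusted p = 8.05e-05). HXT9 rose by 2.48 ± 0.34 with a probe set shared with relatives. GRE2, a reductase of carbonyl compounds such as methylglyoxal, had 10.77, 9.75 and 10.75 at 300 mg/L, against 8.47, 8.27 and 8.35 in controls (2.06 ± 0.23, adjusted p = 7.77e-05). The falls were the aldose reductase gene GRE3 (-0.62 ± 0.11), the phospholipase gene PLB1 (-0.58 ± 0.13), the sphingoid hydroxylase gene SUR2 (-0.52 ± 0.10) and the phosphatidylinositol transfer gene PDR17 (-0.31 ± 0.09). Of 15 targets of the weak-acid factors Haa1 and War1, 3 rose and 5 fell, led by PDR12 on one side and by GAD1 (-1.61 ± 0.23) and the membrane protein gene YRO2 (-1.49 ± 0.12) on the other.

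**Figure D2:**
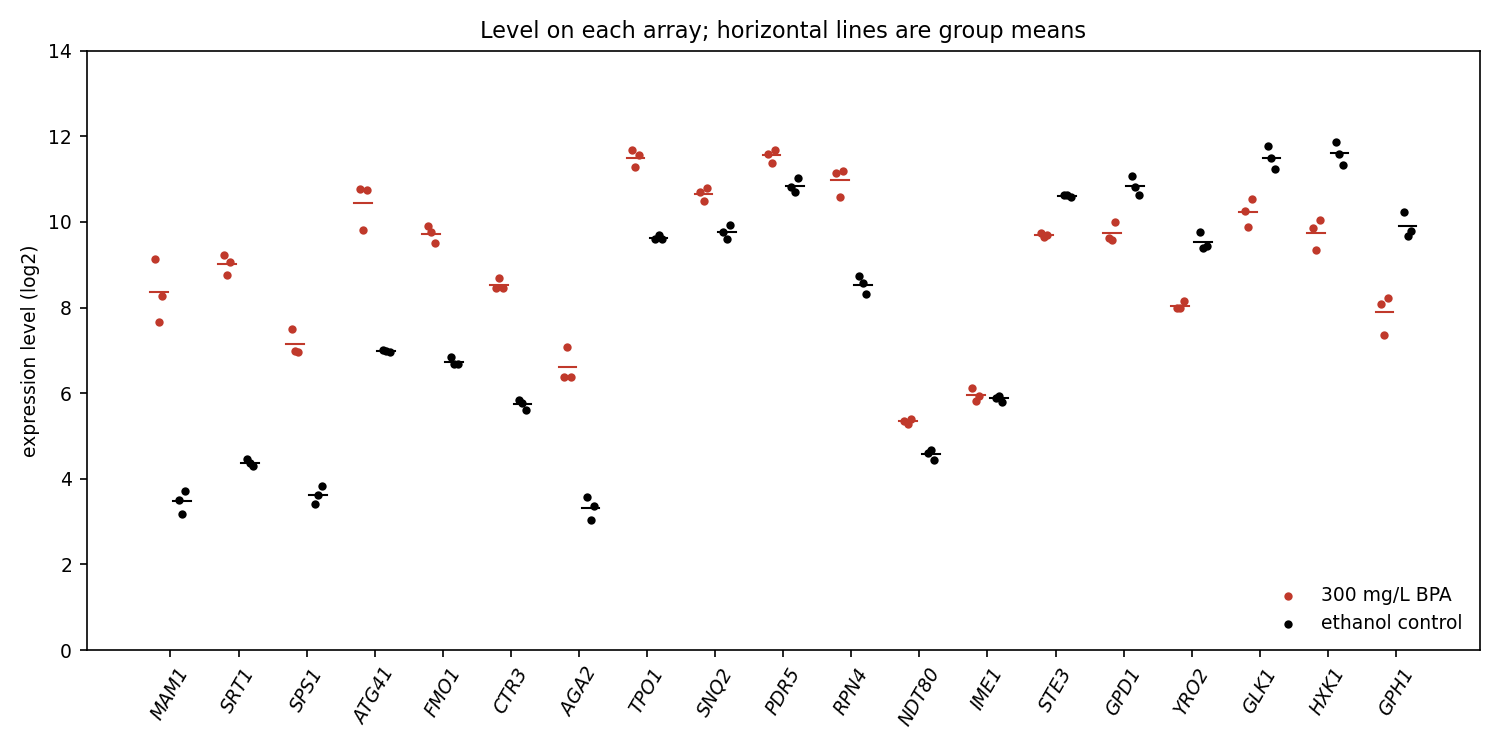
Log2 level on each array (vertical axis) for 19 genes (horizontal axis), with the 3 arrays at 300 mg/L BPA in red to the left of the 3 ethanol control arrays in black, and a short line at each group mean. MAM1, AGA2 and TPO1 lie higher on every 300 mg/L array than on any control array, IME1 overlaps, and STE3, HXK1 and GPH1 lie lower.

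Genes of meiosis were examined from the switch that starts it to the last layer of the spore wall. Of 17 regulators of entry into meiosis, 4 rose and 6 fell. IME1, the master inducer, had levels of 6.13, 5.81 and 5.94 at 300 mg/L, against 5.90, 5.94 and 5.80 in controls. The groups overlapped for IME1, with a difference of 0.08 ± 0.13 whose sign depended on the scaling (adjusted p = 0.621). NDT80, the factor that switches on the middle genes, had 5.35, 5.29 and 5.39 at 300 mg/L, against 4.60, 4.68 and 4.44 in controls (0.77 ± 0.10, adjusted p = 0.000189). Its groups did not overlap. The meiotic kinase gene IME2 rose by 0.40 ± 0.13, the deacetylase gene HST1, which represses middle genes with Sum1 and Rfm1, by 0.31 ± 0.07, and the kinase gene MCK1 by 0.29 ± 0.06.

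Falls among these regulators came from activators and repressors alike. The factor gene RIM101 fell by 0.45 ± 0.07, the kinase gene RIM11 by 0.37 ± 0.10 and MUM2 by 0.23 ± 0.09. RME1, a repressor of IME1, fell by 0.36 ± 0.11, the deacetylase gene RPD3 by 0.35 ± 0.08 and RFM1 by 0.33 ± 0.09. The other genes did not pass: the repressors UME6 (-0.11 ± 0.09), SUM1 (-0.02 ± 0.09) and SIN3 (-0.13 ± 0.11), the kinase gene RIM15 (-0.09 ± 0.11), RIM4 (-0.14 ± 0.14) and the RNA methyltransferase gene IME4 (-0.03 ± 0.13). With spike-in centring 1 regulator rose and 2 fell, and with quantile normalization 3 rose and 8 fell.

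Of 32 measured early meiotic genes, which act in pairing and recombination of chromosomes, 19 rose and 3 fell, with a median of 0.40. That is 59.4% higher, against 27.5% of all genes. The list's median level was 3.93 in controls and 4.62 at 300 mg/L, so no single level bin matches it. Of genes with a mean level under 4 over the 9 arrays 58.8% rose, and of those from 4 to 6, 44.6%. With genes at background set to their bound the median change was 0.20, and 7 of the 32 were not above background on any control array. SAE3, a partner of the meiotic recombinase, had levels of 5.91, 5.25 and 5.16 at 300 mg/L and lay at background on all 3 control arrays, so it was at least 9.72-fold higher (adjusted p = 5.33e-07). DMC1, that recombinase, had 5.50, 5.51 and 5.45 at 300 mg/L, against 4.38, 4.39 and 4.06 in controls (1.21 ± 0.09, adjusted p = 6.16e-06). MEK1, a kinase of meiotic chromosome axes, was at least 2.72-fold higher. REC114, needed for meiotic DNA breaks, had 4.46, 4.38 and 4.12 at 300 mg/L, against 3.24, 3.19 and 2.78 in controls (1.25 ± 0.13). GMC1 (-0.59 ± 0.10), REC107 (-0.28 ± 0.09) and MSH4 (-0.22 ± 0.08, groups overlapping) fell. Quantile normalization gave 8 higher and 11 lower in this list, so its count did not hold under that scaling. Without control replicate 1, 14 rose and 1 fell.

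Middle genes, which carry out the divisions and build the spore, held the 4 largest rises of all genes. Of 49 members 30 rose and 7 fell, and 14 of the rises were of at least 2-fold. The list's median level was 4.64 in controls and 5.60 at 300 mg/L, and 61.2% rose. Of genes with a mean level from 4 to 6 over the 9 arrays, 44.6% rose. Members also lay outside that bin, with 6 at background on all control arrays, so the bin is not a matched background. MAM1, part of the monopolin complex that ties sister chromosomes to the same pole, had levels of 9.15, 7.65 and 8.28 at 300 mg/L, against 3.51, 3.19 and 3.71 in controls. Treated arrays differed widely among themselves for MAM1, yet the lowest stood far above the controls (4.89 ± 0.31, adjusted p = 2.55e-06). SRT1, a cis-prenyltransferase that makes long polyprenols in spores, had 9.24, 8.76 and 9.06 at 300 mg/L, against 4.46, 4.36 and 4.29 in controls (4.65 ± 0.12, adjusted p = 1.32e-08). SPR3, a septin of the spore membrane, had 8.52, 7.36 and 8.07 at 300 mg/L, against 3.36, 3.43 and 3.21 in controls (4.65 ± 0.24). SPO19 had 6.73, 7.24 and 6.66 at 300 mg/L, against 2.53, 2.41 and 2.89 in controls (4.26 ± 0.22). For these genes no treated array came near a control array.

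Other middle genes fell. CLB1, a B-type cyclin that also acts in vegetative mitosis, had levels of 8.98, 9.08 and 9.01 at 300 mg/L, against 10.08, 10.04 and 10.01 in controls (-1.02 ± 0.07, adjusted p = 2.69e-06). SPS4 fell by 0.82 ± 0.09, AMA1, the meiotic activator of the anaphase-promoting complex, by 0.66 ± 0.14 and the cyclin gene CLB6 by 0.50 ± 0.10. The median over the 49 genes was 0.51, and 0.40 with background genes at their bound. Quantile normalization gave 16 higher and 11 lower.

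Of 8 measured late genes, which act in the outer spore wall, 4 rose and 1 fell. The list's median level was 3.26 in controls and 4.42 at 300 mg/L, and 50.0% rose. Of genes with a mean level under 4 over the 9 arrays 58.8% rose, and of those from 4 to 6, 44.6%. DIT1, an enzyme of dityrosine synthesis, had levels of 6.09, 4.91 and 5.52 at 300 mg/L, against 3.51, 3.22 and 3.62 in controls (2.06 ± 0.24, adjusted p = 9.18e-05). SPS100, a spore wall protein, had 6.78, 6.64 and 6.69 at 300 mg/L, against 4.93, 4.52 and 4.38 in controls (2.09 ± 0.15). DIT2, the next enzyme of that pathway, rose by 0.88 ± 0.20 with 1 control array at background, and DTR1, a dityrosine exporter, by 0.45 ± 0.09, a direction that turned under quantile normalization. LDO16, a lipid droplet protein, fell by 0.37 ± 0.07. Under quantile normalization 2 late genes rose and 4 fell.

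Called alpha-specific genes were lower at 300 mg/L and called a-specific genes higher. All 4 alpha-specific genes lay well above background on all 6 arrays, and 3 fell. STE3, the receptor for a-factor, had levels of 9.74, 9.65 and 9.70 at 300 mg/L, against 10.62, 10.63 and 10.58 in controls (-0.91 ± 0.08, adjusted p = 1.99e-05). SAG1, the alpha-agglutinin of the cell surface, fell by 0.63 ± 0.09. MF(ALPHA)1, the main gene of alpha-factor, had 12.10, 12.14 and 12.11 at 300 mg/L, against 12.41, 12.33 and 12.42 in controls (-0.27 ± 0.06), and MF(ALPHA)2 differed by -0.21 ± 0.08 (adjusted p = 0.0513). The groups did not overlap for STE3, SAG1 or MF(ALPHA)1.

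Of 7 a-specific genes 4 rose and 0 fell, with a median of 1.09, whereas quantile normalization gave 4 higher, 1 lower and a median of 0.55. The list's median level was 3.78 in controls and 4.50 at 300 mg/L, and 57.1% rose. Of genes with a mean level under 4 over all arrays 58.8% rose, with a median change of 0.44. Of those from 4 to 6, 44.6% rose, with a median change of 0.20. No single level bin matches this list, so neither share is a matched background. AGA2, the binding subunit of a-agglutinin, had levels of 6.38, 7.07 and 6.39 at 300 mg/L, against 3.58, 3.05 and 3.36 in controls (3.29 ± 0.21, adjusted p = 2.69e-06). MFA2, a gene of a-factor, had 4.67, 4.12 and 4.29 at 300 mg/L, against 2.90, 2.86 and 2.75 in controls (1.52 ± 0.14). ASG7 rose by 1.37 ± 0.09 and BAR1, the protease that degrades alpha-factor, by 1.09 ± 0.14. MFA1 (0.23 ± 0.09), the alpha-factor receptor gene STE2 (0.29 ± 0.13) and the a-factor exporter gene STE6 (0.24 ± 0.11) did not pass, with adjusted p from 0.0585 to 0.0883. These 3 genes and MF(ALPHA)2 were named after their values were seen, to complete both lists. The summed level of the list, in log2, lay between 7.91 and 8.11 at 300 mg/L, against 6.77 to 6.86 in controls. For the alpha-specific list it lay between 13.38 and 13.44 at 300 mg/L, against 13.79 to 13.82 in controls.

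Of 10 genes expressed in haploids of either type 0 rose and 5 fell. Of these 2 rose with the 6 arrays fitted alone, with array weights or with arrays centred on probe sets taken as fission yeast. FUS3, the mitogen-activated kinase of mating, fell by 0.69 ± 0.07, the G protein gamma gene STE18 by 0.54 ± 0.10, and FAR1, which arrests the cycle in mating cells, by 0.42 ± 0.07. The silencing factors that keep the spare mating-type copies shut were examined in a list of 25 silencing and deacetylase genes, of which 4 rose and 9 fell. SIR4 had levels of 8.83, 8.67 and 8.69 at 300 mg/L, against 7.98, 7.99 and 8.10 in controls (0.71 ± 0.09, adjusted p = 0.000116). The deacetylase gene SIR2 rose by 0.62 ± 0.10. HST4 fell by 0.70 ± 0.10, ESC1 by 0.47 ± 0.11 and HDA1 by 0.40 ± 0.10. The falls in this list numbered 5 without 300 mg/L replicate 1 or 3.

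**Figure D3:**
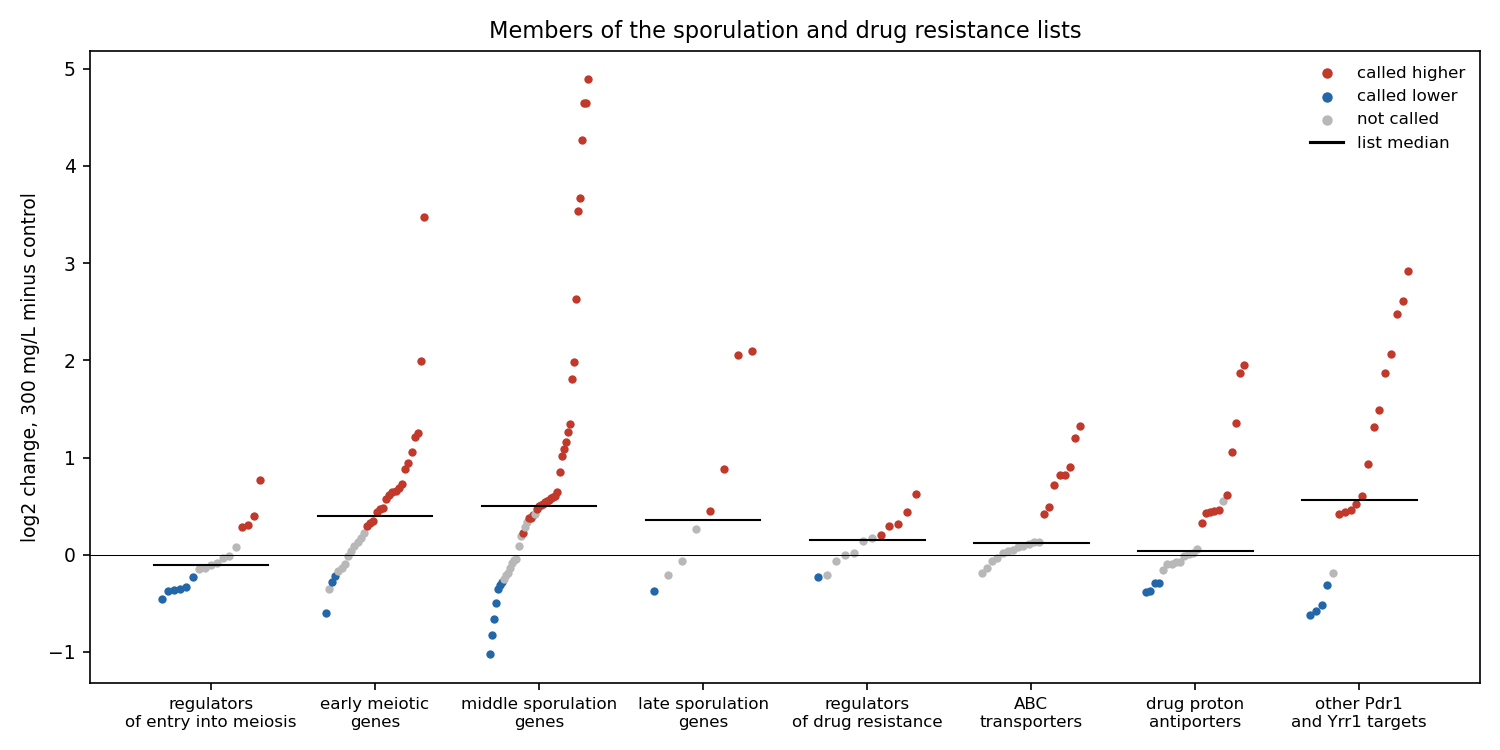
Log2 change at 300 mg/L minus control (vertical axis) of each measured member of 8 lists of sporulation and drug resistance, ordered by change within a list and coloured by call, with a line at the list median. Middle sporulation genes span from CLB1 at -1.02 to MAM1 at 4.89, and none of the regulators of either process reaches a change of 1.

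The largest fall of all genes was that of GPH1, and further enzymes that act on glycogen or sugars were among the 25 largest. GPH1 had levels of 8.08, 7.36 and 8.24 at 300 mg/L, against 10.24, 9.68 and 9.78 in controls. HXK1, a hexokinase, had 9.86, 9.34 and 10.04 at 300 mg/L, against 11.88, 11.59 and 11.34 in controls, and the glucokinase gene GLK1 had 10.27, 9.89 and 10.53, against 11.77, 11.49 and 11.23. Replicate 2 was the lowest treated array for all 3 genes, and none of them overlapped between groups. The branching enzyme gene of glycogen, GLC3, fell by 1.47 ± 0.23, SOL4, an enzyme of the pentose phosphate route, by 1.40 ± 0.30 and TDH1, a glyceraldehyde phosphate dehydrogenase, by 1.29 ± 0.16. The 3′ over 5′ difference of TDH1 was larger at 300 mg/L, as given above. GPM2, a relative of phosphoglycerate mutase, fell by 1.27 ± 0.22. The glycogen synthase gene GSY1 fell by 1.58 ± 0.16, the phosphoglucomutase gene PGM2 by 1.56 ± 0.23 and the hexose transporter genes HXT4 by 1.70 ± 0.18 and HXT7, with a shared probe set, by 1.56 ± 0.17.

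The next largest falls, OPT2 and WSC4, lay outside carbon use. OPT2, a transporter of peptides, had levels of 5.16, 5.07 and 4.71 at 300 mg/L, against 6.79, 7.10 and 6.72 in controls (-1.89 ± 0.16, adjusted p = 1.3e-05). WSC4, a membrane protein of the cell wall stress family, had 7.61, 7.58 and 7.76 at 300 mg/L, against 9.63, 9.59 and 9.39 in controls (-1.88 ± 0.15). ARO10, the decarboxylase that leads aromatic and branched amino acids to fusel alcohols, had 7.99, 7.96 and 8.03 at 300 mg/L, against 9.56, 9.72 and 9.56 in controls (-1.62 ± 0.08, adjusted p = 4.02e-07). EEB1, which makes ethyl esters of fatty acids, fell by 1.34 ± 0.10. The vacuolar aminopeptidase gene APE1 fell by 1.36 ± 0.15, AIM17 by 1.41 ± 0.19, EGO4 by 1.39 ± 0.24 and RGI1, a gene of respiratory growth, by 1.41 ± 0.24. Its paralogue RGI2, named after its value was seen, had 5.05, 3.76 and 4.82 at 300 mg/L and lay at background on all 3 control arrays, so it was at least 5.22-fold higher.

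Other genes among the 25 largest rises have varied roles. ECM23, a gene of the GATA factor family, had levels of 5.19, 5.23 and 5.30 at 300 mg/L and lay at background on all 3 control arrays, so it was at least 8.46-fold higher. ATG41, an autophagy gene, had 10.76, 9.81 and 10.74 at 300 mg/L, against 7.01, 6.98 and 6.97 in controls (3.45 ± 0.23, adjusted p = 3.31e-06). Neither gene overlapped between groups. BTN2, a sorting factor for misfolded proteins, had levels of 11.71, 10.88 and 11.60 at 300 mg/L, against 8.03, 8.11 and 7.83 in controls (3.41 ± 0.19, adjusted p = 8.89e-07). APJ1, a chaperone of the Hsp40 family, had 9.66, 8.75 and 9.44 at 300 mg/L, against 6.43, 6.36 and 6.25 in controls (2.93 ± 0.18). MPC3, a subunit of the mitochondrial pyruvate carrier, had 9.12, 8.45 and 9.02 at 300 mg/L, against 6.09, 5.52 and 5.74 in controls (3.08 ± 0.22). BTN2, APJ1 and MPC3 were separated between groups by more than the spread of either group.

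CTA1, the peroxisomal catalase, had 7.55, 6.08 and 7.44 at 300 mg/L, against 3.84, 3.67 and 3.61 in controls (3.31 ± 0.31). FMO1, a flavin monooxygenase that oxidises thiols, had 9.91, 9.76 and 9.51 at 300 mg/L, against 6.83, 6.69 and 6.67 in controls (2.99 ± 0.11, adjusted p = 6.1e-08). PHO89, a sodium-phosphate cotransporter, had 8.89, 7.93 and 8.51 at 300 mg/L, against 4.8, 5.44 and 4.87 in controls (3.41 ± 0.23). CTR3, a copper transporter, had the second smallest p of all genes, with 8.45, 8.69 and 8.46 at 300 mg/L, against 5.84, 5.77 and 5.60 in controls (2.80 ± 0.09, adjusted p = 4.33e-08). The magnesium transporter gene MFM1 of the mitochondrion rose by 2.16 ± 0.08. RTS3 and RTT105 rose by 3.07 ± 0.22 and 3.0 ± 0.31, RRT5 by 3.21 ± 0.13 and RNP1 by 3.21 ± 0.29.

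Genes of 44 measured transcription factors of carbon use and stress had 21 rises and 7 falls, with a median of 0.19. RPN4, the activator of proteasome genes, had levels of 11.15, 10.59 and 11.18 at 300 mg/L, against 8.74, 8.56 and 8.31 in controls (2.44 ± 0.16, adjusted p = 2.72e-06). NRG2, a repressor of glucose-repressed genes, had 10.34, 9.33 and 10.13 at 300 mg/L, against 7.91, 7.74 and 7.56 in controls (2.20 ± 0.21). The glucose-induced repressor genes MIG3 and MIG2 rose by 1.51 ± 0.10 and 1.33 ± 0.21. MIG3 had 7.13, 7.14 and 7.09 at 300 mg/L, against 5.51, 5.55 and 5.78 in controls, with no overlap.

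MSN4, a factor of the general stress response, had 6.94, 6.81 and 7.28 at 300 mg/L, against 8.16, 8.20 and 8.08 in controls (-1.14 ± 0.15, adjusted p = 0.000156). MTH1, a co-repressor of hexose transporter genes, fell by 0.88 ± 0.13, CAT8, an activator of gluconeogenesis, by 0.39 ± 0.12 and YAP3 by 0.32 ± 0.09. With spike-in centring 14 of these factors rose and 3 fell, and the falls numbered 3 without control replicate 2 and 4 without 300 mg/L replicate 2.

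Genes of ubiquinone, the electron carrier of the inner mitochondrial membrane, fell more often than they rose. Of 15 genes of ubiquinone synthesis 1 rose and 12 fell, with a median of -0.53. CAT5 had levels of 7.21, 7.37 and 7.30 at 300 mg/L, against 8.20, 8.09 and 7.88 in controls (-0.76 ± 0.12, adjusted p = 0.000555). COQ4, COQ9 and COQ2 fell by 0.74 ± 0.11, 0.72 ± 0.12 and 0.70 ± 0.09. The riser was YAH1, a ferredoxin that also serves iron-sulfur clusters and heme, with 9.79, 9.79 and 9.73 at 300 mg/L, against 9.07, 9.11 and 9.08 in controls (0.68 ± 0.06, adjusted p = 1.91e-05). The groups did not overlap for CAT5 or YAH1. Spike-in centring left 10 falls and 1 rise.

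Yeast swaps isoforms of some proteins between air and low oxygen, and both members of the COX5 and cytochrome c pairs fell. COX5A, the cytochrome oxidase subunit used in air, had 9.18, 9.40 and 9.32 at 300 mg/L, against 10.25, 10.18 and 10.02 in controls (-0.85 ± 0.11). Its low-oxygen partner COX5B had 8.63, 8.28 and 8.67 at 300 mg/L, against 9.62, 9.41 and 9.39 in controls (-0.94 ± 0.16). The cytochrome c genes CYC1 and CYC7, of air and low oxygen, fell by 0.66 ± 0.10 and 1.00 ± 0.21. For the translation factor isoforms the directions differed, with HYP2, used in air, up by 0.27 ± 0.07 and ANB1 lower by -0.67 ± 0.16. In all, 3 of 19 oxygen- and heme-regulated genes rose and 7 fell, and 2 of 5 partners used in air rose and 3 fell. UPC2, an activator of sterol and anaerobic genes, had 8.02, 7.80 and 8.0 at 300 mg/L, against 6.92, 7.03 and 7.05 in controls (0.94 ± 0.08, adjusted p = 1.89e-05). ROX1, the repressor of low-oxygen genes, rose by 0.48 ± 0.12. Of 9 DAN and TIR cell wall genes, which are induced without oxygen, 1 rose and 1 fell, and 3 fell under quantile normalization. The riser, PAU24, is also counted among the seripauperin genes below, and without shared probe sets 0 of 8 DAN and TIR genes rose.

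In synthesis of NAD from tryptophan and its salvage, of 13 genes 1 rose and 10 fell, with a median of -0.54. BNA1, a dioxygenase of the pathway, had levels of 9.06, 8.73 and 8.87 at 300 mg/L, against 10.07, 9.88 and 9.90 in controls (-1.06 ± 0.13, adjusted p = 0.000113). PNC1, the nicotinamidase of the salvage route, had 9.58, 9.31 and 9.76 at 300 mg/L, against 10.79, 10.60 and 10.40 in controls (-1.05 ± 0.15). BNA4 and BNA6 fell by 0.71 ± 0.10 and 0.62 ± 0.11. NMA1, an adenylyltransferase near the end of the pathway, had 8.28, 8.34 and 8.32 at 300 mg/L, against 7.65, 7.61 and 7.66 in controls (0.67 ± 0.06, adjusted p = 1.67e-05). None of these genes overlapped between groups, and spike-in centring left 9 falls and 1 rise.

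**Figure D4:**
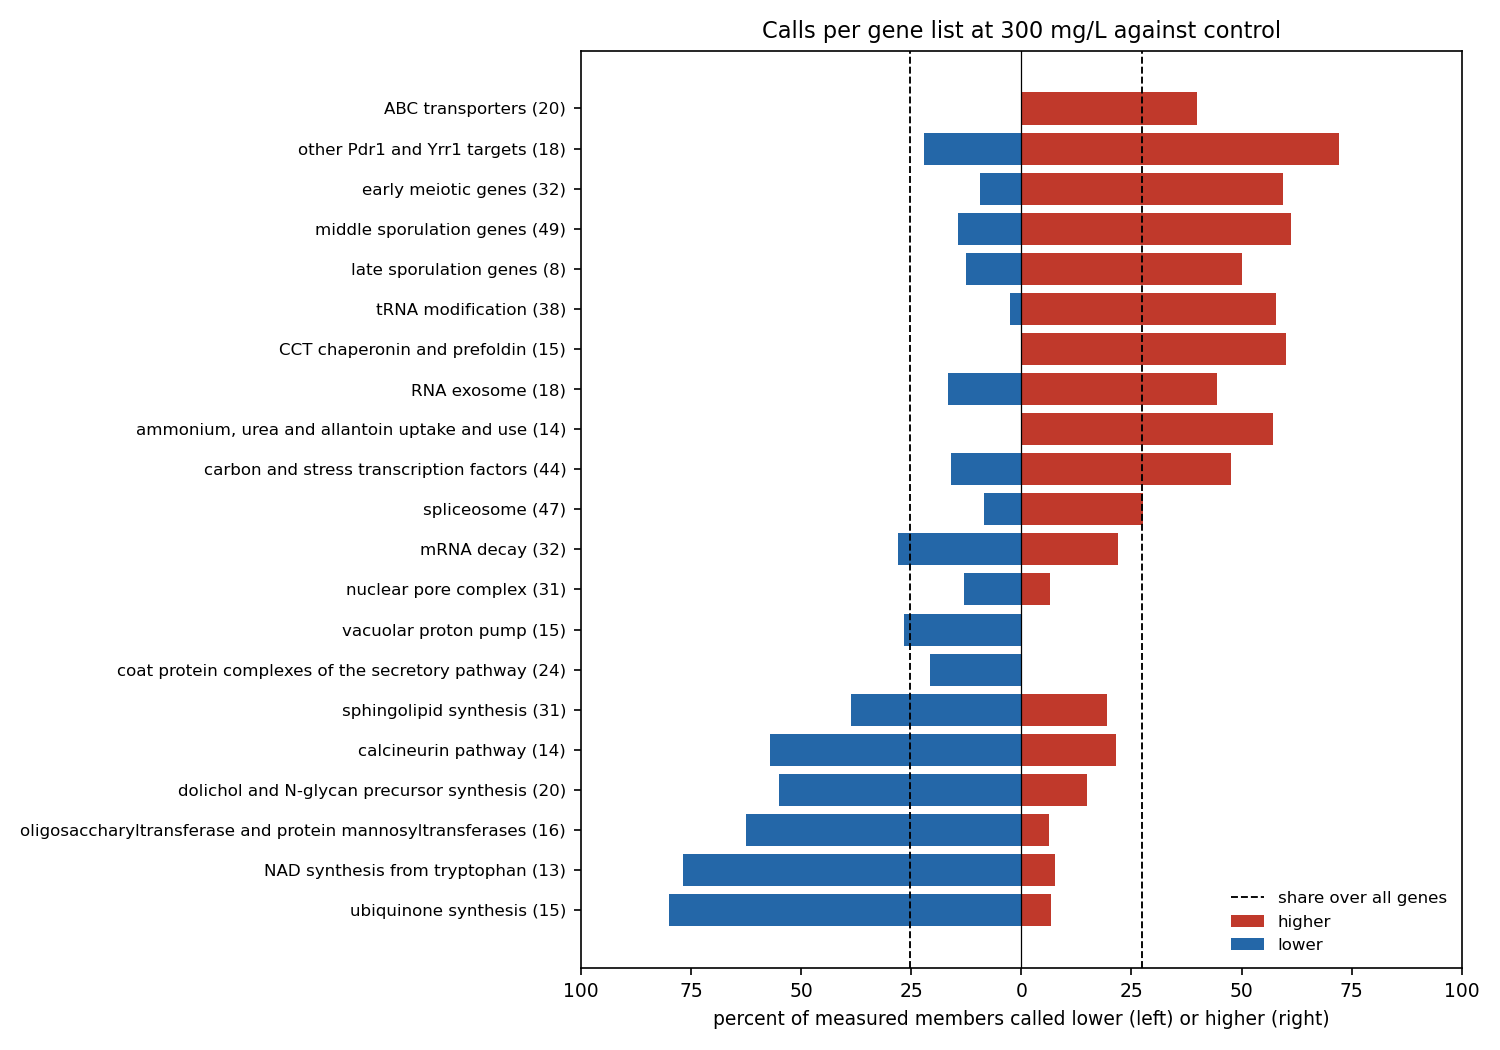
Percent of the measured members (number in brackets) of 21 gene lists called higher at 300 mg/L, to the right in red, or lower, to the left in blue, with dashed lines at 27.5% and 25.2%, the shares over all genes. The bars of ubiquinone and NAD synthesis reach furthest left, and those of the ABC transporters, the CCT chaperonin with prefoldin and the ammonium, urea and allantoin genes lie on the right alone, though under quantile normalization 3 ABC transporter genes and 1 ammonium, urea or allantoin gene were lower.

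More genes of nitrogen uptake rose than fell. Of 14 measured genes for uptake and use of ammonium, urea and allantoin, 8 rose and 0 fell, with a median of 0.33. DUR3, the urea transporter, had levels of 6.49, 6.54 and 6.62 at 300 mg/L, against 5.56, 5.52 and 5.53 in controls (1.01 ± 0.08, adjusted p = 9.24e-06). The ammonium permease genes MEP1 and MEP3 rose by 0.81 ± 0.13 and 0.50 ± 0.07, and the repressor gene DAL80, at a low level, by 0.60 ± 0.13, though quantile normalization turned its direction. Spike-in centring left 3 rises, quantile normalization gave 5 rises and 1 fall, and 5 rose without 300 mg/L replicate 3. Of 23 genes of amino acid breakdown and nitrogen control 8 rose and 5 fell. PUT1, the proline oxidase, had 7.83, 7.21 and 7.79 at 300 mg/L, against 5.94, 6.0 and 5.92 in controls (1.66 ± 0.15, adjusted p = 2.26e-05). The proline permease gene PUT4 rose by 1.43 ± 0.18, whereas PUT2, the next enzyme after PUT1, fell by 0.61 ± 0.07. In arginine breakdown the arginase gene CAR1 rose by 0.77 ± 0.10 and the transaminase gene CAR2 fell by 0.55 ± 0.11.

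Vitamin and nucleotide genes split. Among 7 biotin genes 4 rose and 1 fell, led by VHR1, the factor of biotin uptake genes, with 10.05, 9.20 and 9.86 at 300 mg/L, against 7.77, 7.80 and 7.75 in controls (1.93 ± 0.19, adjusted p = 2.87e-05). BIO5, a permease gene, rose by 0.50 ± 0.10, though its direction turned under quantile normalization, and the ligase gene BPL1 fell by 0.22 ± 0.06. The count of biotin rises did not hold: 1 rose under quantile normalization or spike-in centring, and 2 without control replicate 1 or without 300 mg/L replicate 1 or 3. Of 14 measured thiamine genes 3 rose and 5 fell, with THI72 up by 0.66 ± 0.09 and THI3 lower by -0.49 ± 0.07. The thiamine falls numbered 7 under quantile normalization and 3 without control replicate 1 or without 300 mg/L replicate 1 or 3. In the list of 7 pyridoxine genes 3 rose and 2 fell, with 1 rise without 300 mg/L replicate 3. The 13 pyrimidine genes held 3 rises and 5 falls, and the 2 CTP synthase genes moved apart. Only 1 pyrimidine gene rose without control replicate 1 or 2 or without 300 mg/L replicate 2, and 3 fell without control replicate 2 or 3 or without 300 mg/L replicate 2. URA8 had 7.47, 7.62 and 7.72 at 300 mg/L, against 8.59, 8.72 and 8.5 in controls (-1.0 ± 0.09, adjusted p = 1.64e-05), and URA7 had 10.43, 10.61 and 10.48 at 300 mg/L, against 9.84, 9.96 and 10.14 in controls (0.52 ± 0.09). Of 7 guanine nucleotide genes 2 rose, HPT1 (0.35 ± 0.09) and SDT1 (0.30 ± 0.07), and 0 fell. Those 2 are 28.6%, close to the 27.5% over all genes.

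Genes that modify tRNA rose more often than they fell. Of 38 measured tRNA modification genes 22 rose and 1 fell, with a median of 0.27. DUS1, a dihydrouridine synthase, had levels of 7.74, 7.86 and 7.66 at 300 mg/L, against 6.53, 6.73 and 7.07 in controls (0.97 ± 0.14, adjusted p = 0.000276). The adenosine deaminase genes TAD2 and TAD1 rose by 0.72 ± 0.07 and 0.71 ± 0.07, and the methyltransferase gene TRM11 by 0.69 ± 0.14. RIB2, which also acts in riboflavin synthesis, fell by 0.34 ± 0.07. All of these changes were below 2-fold. Spike-in centring left 6 rises and 0 falls, and 14 rose without control replicate 1 or without 300 mg/L replicate 1.

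Of 18 measured genes of the RNA exosome and its partners, which trim and degrade nuclear RNA, 8 rose and 3 fell. The cofactor gene LRP1 had 8.94, 8.83 and 8.78 at 300 mg/L, against 7.90, 7.90 and 8.10 in controls (0.89 ± 0.11, adjusted p = 0.000125), and the core subunit gene MTR3 rose by 0.78 ± 0.11. Of the 2 zinc-knuckle partners AIR1 rose by 0.73 ± 0.13 and AIR2 fell by 0.34 ± 0.07. Among 47 spliceosome genes 13 rose and 4 fell, led by MUD1, a protein of the U1 particle, with 9.30, 9.31 and 9.11 at 300 mg/L, against 7.93, 7.87 and 7.79 in controls (1.38 ± 0.09, adjusted p = 2.55e-06). The 13 spliceosome rises are 27.7%, close to the 27.5% over all genes. Spike-in centring left 4 spliceosome rises and 2 falls, and quantile normalization gave 12 and 8, while 2 fell without control replicate 3. The exosome rises numbered 5 without control replicate 1 or 2 or without 300 mg/L replicate 2, and its falls numbered 1 without control replicate 3 or without 300 mg/L replicate 1 or 3.

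In the list of 32 mRNA decay genes 7 rose and 9 fell. These are 21.9% and 28.1%, against 27.5% and 25.2% over all genes. The decapping subunit gene DCP1 rose by 1.57 ± 0.22, and the LSM5, LSM3 and LSM6 genes of the Lsm ring rose by 0.49 ± 0.11, 0.45 ± 0.09 and 0.41 ± 0.09. The deadenylase genes CDC36 (-0.44 ± 0.08), PAN2 (-0.39 ± 0.12) and NOT5 (-0.37 ± 0.08) fell. Without control replicate 1 or 300 mg/L replicate 1, 5 decay genes fell. Of 15 genes of the CCT chaperonin and prefoldin, which fold actin and tubulin, 9 rose and 0 fell. The prefoldin genes YKE2 and GIM3 rose by 0.64 ± 0.07 and 0.55 ± 0.06, and the chaperonin genes CCT3 and CCT8 by 0.43 ± 0.09 and 0.40 ± 0.07. Spike-in centring left 2 of these rises. Nuclear pore genes had 2 rises and 4 falls among 31, and karyopherin genes 4 rises, led by the importins KAP123 (0.53 ± 0.09) and KAP95 (0.52 ± 0.11), and 2 falls among 19. Without control replicate 1 no pore gene rose, and 2 fell without control replicate 2 or 3 or without 300 mg/L replicate 3. Karyopherin rises numbered 2 without any 1 of the control replicates or without 300 mg/L replicate 1, and none fell without control replicate 2.

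Genes of glycosylation fell more often than they rose. Of 20 measured genes that make dolichol and the N-glycan precursor, 3 rose and 11 fell, with a median of -0.25. ALG2, a mannosyltransferase, had levels of 7.07, 7.37 and 7.16 at 300 mg/L, against 8.01, 8.19 and 8.05 in controls (-0.88 ± 0.09, adjusted p = 5.17e-05). ALG9, ALG8 and ALG13 fell by 0.64 ± 0.07, 0.59 ± 0.07 and 0.59 ± 0.10. The rises in this list were SRT1, its vegetative counterpart RER2 (0.37 ± 0.09) and the phosphatase gene CAX4 (0.28 ± 0.09). Of 16 genes of the oligosaccharyltransferase and the protein mannosyltransferases 1 rose and 10 fell, with a median of -0.30. The mannosyltransferase gene PMT7 had 7.75, 7.66 and 7.74 at 300 mg/L, against 8.45, 8.44 and 8.33 in controls (-0.69 ± 0.07), and PMT5, PMT1 and PMT2 fell by 0.51 ± 0.09, 0.49 ± 0.06 and 0.47 ± 0.07. OST4, a small subunit of the oligosaccharyltransferase, rose by 0.31 ± 0.11. Spike-in centring left 7 falls in the first list and 6 in the second.

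Of 31 sphingolipid genes 6 rose and 12 fell. The alkaline ceramidase gene YPC1 had 6.71, 6.50 and 6.76 at 300 mg/L, against 8.17, 7.86 and 7.60 in controls (-1.22 ± 0.20, adjusted p = 0.000667). The hydroxylase gene SCS7 and TSC13, of fatty acid elongation, fell by 0.63 ± 0.07 and 0.58 ± 0.06, while AUR1 and IPT1, which add the inositol head groups, rose by 0.51 ± 0.07 and 0.41 ± 0.08. The sphingolipid rises numbered 3 under quantile normalization, without control replicate 1 or 2 and without 300 mg/L replicate 1 or 3. Eisosome genes, which shape furrows of the plasma membrane, had 2 rises and 4 falls among 16, with LSP1 lower by -0.63 ± 0.10. Eisosome falls numbered 2 without control replicate 1 or 2 or without 300 mg/L replicate 1 or 3, and no eisosome gene rose without control replicate 2 or 3 or without 300 mg/L replicate 3. Coat protein genes of the secretory pathway had 0 rises and 5 falls among 24, led by the coatomer gene SEC28 (-0.75 ± 0.11), and 4 rises and 7 falls with the 6 arrays fitted alone.

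Ion and signalling genes were mixed. Of 17 measured ion pumps and channels of the plasma membrane 5 rose and 2 fell, led by ENA5, a sodium pump gene whose probe set can match its neighbours in the family (0.57 ± 0.07), and the calcium channel gene CCH1 (0.52 ± 0.12). The rises made 29.4% of that list, close to the 27.5% over all genes. In that list 3 rose without control replicate 1 or 2, and none fell without control replicate 2 or 3. Vacuolar proton pump genes had 0 rises and 4 falls among 15, with VMA1 lower by -0.44 ± 0.07. Calcineurin pathway genes had 3 rises and 8 falls among 14. GSC2, a glucan synthase induced by calcineurin, had levels of 9.93, 9.26 and 10.03 at 300 mg/L, against 11.02, 10.87 and 10.83 in controls (-1.17 ± 0.17, adjusted p = 0.000351). CRZ1, the transcription factor of the pathway, rose by 0.55 ± 0.10. The calcineurin falls numbered 4 under spike-in centring, with 1 rise, and without control replicate 1 or 2, and 5 without 300 mg/L replicate 2.

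Isoforms of glycerol synthesis moved apart. Of 9 glycerol genes 1 rose and 3 fell, with the 2 glycerol phosphate dehydrogenase genes on opposite sides. GPD1, the osmotic isoform, had 9.63, 9.58 and 9.99 at 300 mg/L, against 11.08, 10.81 and 10.62 in controls (-1.10 ± 0.15, adjusted p = 0.000215), and GPD2, the isoform of redox balance, had 6.12, 6.17 and 6.07 at 300 mg/L, against 5.19, 5.41 and 5.12 in controls (0.88 ± 0.11, adjusted p = 0.000126). Neither isoform overlapped between groups. Aquaporin and glycerol channel genes had 3 rises, led by AQY2 (0.71 ± 0.09), and 1 fall among 6. Quantile normalization turned the median of these 6 genes to -0.12, against 0.18, with 1 rise and 2 falls, and 1 rose without 300 mg/L replicate 3. Aldehyde dehydrogenase genes had 1 rise, ALD5 (0.72 ± 0.09), and 4 falls, led by HFD1 (-0.96 ± 0.12), among 7. In the retrograde pathway, which signals from mitochondria to the nucleus, 5 of 12 genes rose and 3 fell. Its negative regulator MKS1 rose by 1.10 ± 0.16. In that pathway 3 rose without control replicate 1 or 2 or without 300 mg/L replicate 1 or 3.

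Among 22 measured G2 to M genes 3 rose and 4 fell, and the 2 main mitotic cyclins went opposite ways: CLB2 had levels of 8.30, 8.44 and 8.23 at 300 mg/L, against 7.64, 7.67 and 7.69 in controls (0.66 ± 0.09, adjusted p = 0.00025), and CLB1 fell as given above. IQG1, which organises the contractile ring, rose by 1.02 ± 0.16. The G2 to M falls numbered 8 with the 6 arrays fitted alone, 7 with a replicate block and 10 with array weights. Of 31 kinetochore and spindle genes 5 rose and 7 fell, led by the kinesin gene CIN8 (0.96 ± 0.18) and the Aurora kinase gene IPL1 (-0.44 ± 0.09). The falls in that list numbered 4 without any 1 control replicate and 3 without 300 mg/L replicate 1 or 3. The M to G1 list had 5 rises, such as SCW11 (0.41 ± 0.10), and 4 falls, led by the cyclin gene PCL2 (-0.62 ± 0.08), among 19, and 3 rises without control replicate 1 or 300 mg/L replicate 3. The 5 rises of the M to G1 list are 26.3%, close to the 27.5% over all genes. Ribonucleotide reductase and DNA damage genes had 4 rises and 7 falls among 18. RNR2, RNR1 and RNR4, subunits of the reductase, fell by 0.56 ± 0.09, 0.49 ± 0.10 and 0.48 ± 0.11, and DDR48 fell by 0.68 ± 0.10, while DIF1, which controls import of the small subunits into the nucleus, rose by 0.52 ± 0.09.

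Adhesion genes included 2 transcription factors with large rises. MGA1, a relative of heat shock factor in filamentous growth, had levels of 6.42, 5.22 and 6.38 at 300 mg/L, against 4.04, 4.02 and 3.73 in controls (2.08 ± 0.28, adjusted p = 0.000231). SOK2 had 9.11, 8.64 and 8.91 at 300 mg/L, against 7.76, 7.74 and 7.67 in controls (1.16 ± 0.14). The flocculin gene FLO11 fell by 0.53 ± 0.14 and AGA1, the anchor subunit of a-agglutinin, by 0.71 ± 0.10, in contrast to its partner AGA2. The list of 13 measured genes had 4 rises and 4 falls, and 2 rises when any array other than 300 mg/L replicate 2 was left out. With all arrays both shares are 30.8%, against 27.5% and 25.2% over all genes.

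Gene families near chromosome ends moved in different directions. Of 8 measured COS genes, a family of membrane proteins, 0 rose and 7 fell, with a median of -0.64, and 3 of the 8 rest on probe sets that can match relatives. COS6 had levels of 8.08, 8.0 and 8.05 at 300 mg/L, against 9.01, 8.76 and 8.87 in controls (-0.84 ± 0.11). Of 13 measured seripauperin genes 6 rose and 4 fell, from PAU24 at 1.17 ± 0.10 to PAU18 at -1.46 ± 0.11, but 11 of the 13 rest on shared probe sets. Quantile normalization gave 4 seripauperin genes higher and 7 lower, with a median of -0.27, against 0.05. By gene order in the R64 reference gene table, 10.2% of 98 genes within 5 places of a chromosome end rose by at least 2-fold, against 3.94% of 4920 genes more than 20 places away. Between them the share was 5.11% at 6 to 10 places and 6.19% at 11 to 20, so it did not fall steadily. In the nearest and the furthest bin 37.8% and 26.9% rose and 18.4% and 25.4% fell. The part of expression level in these shares was not tested. Of the 98, 41 rest on shared probe sets, so their values are not separate measurements.

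Some of the genes that rose at least 2-fold lie side by side. Of 227 genes that rose at least 2-fold and have a place in the gene order, 52 had an adjacent gene that did so too, 22.9%, whereas 7.21% of all 5406 placed genes had such a neighbour. Among genes that fell at least 2-fold the share was 3.12%, with 2.11% over all genes. The rises formed 28 adjacent pairs, of which 19 lay on the same strand, 67.9%, as did 47.8% of all 5017 adjacent pairs. No test was made of these shares, and genes in a pair can share transcripts or a control region.

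The pairs named here were chosen after their values were seen. On the same strand, SPS2, at least 10.8-fold higher with all 3 control arrays at background, lay beside SPS1 (3.54), both sporulation genes, and GRE2 (2.06) beside DCP1 (1.57). TPO1 (1.87) lay beside ISA1 (1.16), of iron-sulfur assembly, and RTS3 (3.07) beside the nucleolar gene NSR1 (1.09). APJ1 (2.93), MKS1 (1.10) and IMP4 (2.01), of ribosome assembly, followed one another, as did RTT105 (3.0) and the chaperone gene SSA4 (1.29). IQG1 (1.02) lay beside CIN2 (2.04), a tubulin folding factor, and the hexose transporters HXT1 (2.5) and HXT5 (1.52) were neighbours. VHR1 (1.93) and RGI2 faced away from each other. Toward each other pointed RTA1 (2.52) and SLI1 (2.33), an acetyltransferase that gives resistance to myriocin.

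**Figure D5:**
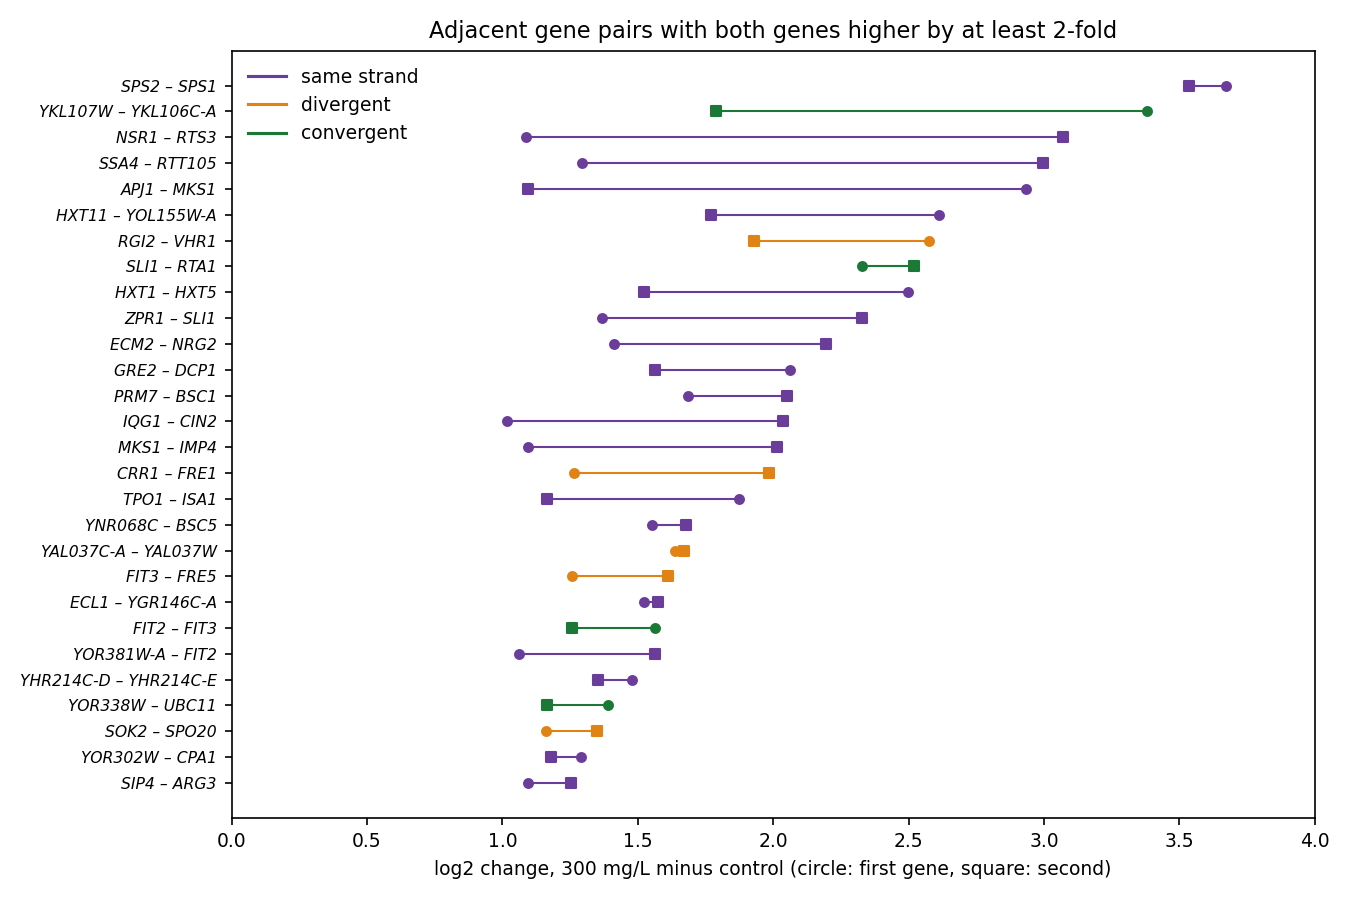
Log2 change at 300 mg/L minus control (horizontal axis) of both genes in each of the 28 adjacent pairs with 2-fold rises, 1 pair per row, with a circle for the first gene, a square for the second and the colour giving the orientation. Same-strand pairs number 19. For 4 of the 52 genes (RGI2, SPS2, YAL037C-A and YKL106C-A) all control arrays lay at background, so their plotted fitted changes are not bounds.

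Genes known only by a systematic name held a larger share of 2-fold rises than genes with a standard name. Of 499 such genes 62 rose at least 2-fold, 12.4%, and 3 fell, against 167 of 4950 genes with a standard name, 3.37%. Their median control level was 6.48, against 8.14 for named genes. YLR412C-A had levels of 6.24, 5.03 and 5.98 at 300 mg/L and lay at background on 2 of 3 control arrays. YJL047C-A had 8.39, 8.18 and 8.12 at 300 mg/L, against 5.21, 5.35 and 5.49 in controls (2.88 ± 0.10, adjusted p = 6.1e-08). YKL107W rose by 3.38 ± 0.22, and YGR273C, at background on all control arrays, was at least 5.87-fold higher.

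Genes often taken as level controls were not flat. Of 12 such genes 1 rose and 9 fell, with a median of -0.22. PGK1, the phosphoglycerate kinase, had levels of 13.03, 12.98 and 12.99 at 300 mg/L, against 13.52, 13.50 and 13.49 in controls (-0.50 ± 0.06, adjusted p = 8.86e-05). The alpha- and beta-tubulin genes TUB1 and TUB2 fell by 0.30 ± 0.07 and 0.25 ± 0.08. TAF10, a general transcription factor subunit, had 8.92, 8.89 and 8.97 at 300 mg/L, against 8.38, 8.40 and 8.38 in controls (0.54 ± 0.06, adjusted p = 4.65e-05). Spike-in centring left 2 falls and 1 rise among the 12. Of the 5 genes with the highest control levels 4 fell: PGK1, GPM1 (-0.31 ± 0.06), FBA1 (-0.23 ± 0.06) and TDH3 (-0.16 ± 0.06), while TEF2 differed by -0.14 ± 0.06 (adjusted p = 0.0685).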

How the data were processed

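RNA of 9 cultures was measured on 1-colour oligonucleotide arrays. Each probe set has a deposited value on the log2 scale, and the submitters' processing notes name RMA, affy and limma without versions or roles. RMA equalises probe intensities between arrays, so every change is relative to the rest of the array. The genome build is not given in the sources used here. Of 10928 probe sets, 5498 were matched to genes of the R64 table, which gave names and gene order, and 3683 are unnamed here. The 1746 annotated probe sets whose single listed gene was not in that table were taken as fission yeast. The probe set with the highest mean over 9 arrays was kept per gene, and 118 genes have a probe set shared with similar sequences. The arrays limit the precision by their number.

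The contrast was fitted in R 4.3.3 with limma 3.58.1 over all 9 arrays, two-sided. A bound sets the brighter mean against the higher of background and the dim gene's own value. The pipeline was tested on simulated data. Figures used matplotlib 3.10.9.

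Members and 54 gene lists were chosen with earlier results of these data known. Named genes are the 25 largest rises and falls with no overlap between groups, the 4 largest called rises and 4 falls per list (the 2 smallest p where none passed), all listed regulators, the 5 highest control levels and the 5 smallest p. Replicate numbers were not taken to pair arrays. Alternatives were the samples fitted, a replicate block, variance model, array weights, 4 scalings, a low-value filter, the probe set rule and each replicate left out.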

Additional observations from a re-analysis of the deposited data

Results flagged for a closer look

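Signal outside the gene comparison was examined on the 300 mg/L arrays against the control arrays. Of 17 control probe sets for ribosomal RNA, 10 were called higher at 300 mg/L, from 0.37 ± 0.09 (SE) to 1.78 ± 0.21 on the log2 scale. A probe set of 25S rRNA had the largest change, with a mean of 12.99 at 300 mg/L and 11.21 in controls (adjusted p = 0.000159 by limma). The 5′ probe set of 18S rRNA differed by -0.14 ± 0.07 (adjusted p = 0.204), and its 3′ probe set by 1.05 ± 0.20. For 25S rRNA the 5′ probe set differed by 0.21 ± 0.15 (adjusted p = 0.375) and the 3′ probe set by 1.03 ± 0.19. The size of the change thus depended on the position of the probe set along the molecule.

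Among 3517 probe sets with no listed gene, 61 were called higher, 13 of them by at least 2-fold, and 128 lower, with a median change of -0.05. Among 1746 probe sets taken as fission yeast, which served as background, 12 were called higher, none by 2-fold, and 37 lower. That these probe sets have no target in the cells was assumed. The cause of these differences was not tested.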

How the results depend on the processing

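Of 357 called genes named by the rule, 350 kept their direction under every alternative run. The other 7 reversed under quantile normalization of the gene values, with changes of -0.15 for AQY1, -0.050 for ATO2, -0.043 for BIO5, -0.080 for DAL80, -0.24 for DTR1, -0.089 for GUP2 and -0.11 for SNO1. Of 14 named genes that were not called, 7 changed sign under at least 1 alternative. Centring on hybridization spike-ins, which puts the median gene at -0.07, gave 679 genes higher and 853 lower, against 1500 and 1372, and 121 named genes lost their call. The other scalings and models stayed within 1.5 times of the counts of 1500 and 1372. The spike-in mean itself varied between replicates: 8.51, 8.76 and 8.55 in controls, and 8.72, 8.53 and 8.84 at 300 mg/L. Spike-in centring therefore also moves replicates relative to each other. The part of this in the lost calls was not tested. Leaving out 1 array gave 1242 to 1343 genes higher and 1082 to 1255 lower, and 215 to 243 higher and 52 to 83 lower by at least 2-fold. After each gene's group mean was subtracted, the remainders of same-numbered arrays at 300 mg/L and control correlated at 0.07, 0.09 and -0.34. The numbers were therefore not taken as pairs. With the replicate block 1559 genes were higher and 1431 lower, 229 and 65 of them by at least 2-fold. All 3 control arrays were at background for 14 of the 2-fold rises, whose size is only bounded.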
